A study of Mus musculus with 21 samples.

Results

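The regions described here are 552 stretches of the mouse genome that carried less methylated DNA in intestinal adenoma than in normal intestine and that lay close to another such stretch. They were taken from the deposited list of merged differentially methylated regions (DMRs) in which adenoma was lower than normal tissue. A hypomethylated DMR was kept when it lay on an autosome and the gap to the next or the previous hypomethylated DMR was under 2000 bp. Of 8803 autosomal hypomethylated DMRs, 552 met this rule (6.27%) and fell into 261 clusters, and the remaining 8251 are called isolated below. The list held 8845 hypomethylated DMRs on all chromosomes, and the series held 13980 merged DMRs in both directions. The comparison of the 5 adenomas with the 6 normal samples chose every DMR, so their lower signal in adenoma is a description and was not tested.

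Methylated DNA was measured by MeDIP-seq, in which an antibody against methylated cytosine pulls down DNA fragments that are then sequenced, and signal is given in rpm, read counts scaled to the aligned reads of the library. The 11 MeDIP samples were of male C57BL/6J (B6) mice of 15 to 19 weeks. B1, B2 and B3 were normal ileum of wild-type Apc-+/+ animals, called B6 normal. N4, N5 and N6 were normal ileum of Apc-Min/+ animals, called APCMin normal, and Ad4, Ad4-1, Ad5, Ad6 and Ad7 were adenomas of Apc-Min/+ animals. Ad4 and Ad4-1 came from 1 animal, which also gave N4, and Ad5 and Ad6 came from the animals of N5 and N6. The Min allele truncates Apc, a brake on Wnt signalling, in every cell of the animal, so APCMin normal tissue carries it as well, and adenomas are benign tumours that arise after the other allele is lost. Input DNA, sequenced without the antibody, was present for B3, N4 and Ad7.

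In mammals methylation sits mainly on cytosines followed by guanine (CpG sites), and most CpG sites outside CpG islands are methylated. Islands are short stretches dense in CpG sites, often at gene starts, and are usually free of methylation. Distal regulatory elements often carry less methylation where transcription factors occupy them. MeDIP signal depends on the number of CpG sites as well as on their methylation, and in tissue DNA a lower signal can come from less methylation per cell or from another mixture of cells, which cannot be told apart here.

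One of the 3 clusters with the most members lay in Pmepa1, whose product is a membrane protein that is induced by TGF-beta and restrains the signal by binding Smad proteins. It spanned chr2:173095251-173099500 (mm9) and held 4 DMRs, of which 3 touched. The most CpG-rich 300 bases of the last of them, chr2:173098751-173099500, are shown with CpG sites in capitals, together with the same for the DMR at a Ubtf promoter and the DMR at the Ckap4 promoter, because these loci carry the results below. Sequences are the plus strand of the mm9 reference.
Pmepa1, chr2:173098786-173099085: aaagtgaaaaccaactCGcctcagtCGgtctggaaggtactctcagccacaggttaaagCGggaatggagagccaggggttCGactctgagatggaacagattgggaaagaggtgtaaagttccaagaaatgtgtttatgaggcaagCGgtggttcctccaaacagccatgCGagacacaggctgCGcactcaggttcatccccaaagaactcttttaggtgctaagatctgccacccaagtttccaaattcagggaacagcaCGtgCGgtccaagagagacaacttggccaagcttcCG
Ubtf, chr11:102172068-102172367: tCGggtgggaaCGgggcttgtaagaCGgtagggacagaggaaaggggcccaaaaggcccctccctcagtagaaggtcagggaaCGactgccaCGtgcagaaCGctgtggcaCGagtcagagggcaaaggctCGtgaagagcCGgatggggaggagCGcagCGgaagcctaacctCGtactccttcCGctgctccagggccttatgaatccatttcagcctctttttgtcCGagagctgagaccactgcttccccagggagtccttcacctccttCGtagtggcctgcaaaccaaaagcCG
Ckap4, chr10:83996200-83996499: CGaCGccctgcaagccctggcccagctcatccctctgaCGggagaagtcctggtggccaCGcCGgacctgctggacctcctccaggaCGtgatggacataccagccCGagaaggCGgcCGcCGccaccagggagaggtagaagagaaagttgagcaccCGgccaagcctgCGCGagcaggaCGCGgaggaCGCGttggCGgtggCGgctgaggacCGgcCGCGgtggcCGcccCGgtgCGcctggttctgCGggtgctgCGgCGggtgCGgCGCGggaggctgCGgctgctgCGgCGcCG
The Pmepa1 stretch held 10 CpG sites, the Ubtf stretch 16 and the Ckap4 stretch 35. The first lies in an intron of Pmepa1, and the Ubtf stretch near an annotated transcript start inside the gene of an RNA polymerase I transcription factor. The Ckap4 stretch lies at the start of a gene for a membrane protein of the endoplasmic reticulum. The DMR around it overlapped a CpG island, by 516 bp with the stricter island limits given below.

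Most clusters were pairs. There were 234 clusters of 2 DMRs, 24 of 3 and 3 of 4, with a median span of 2000 bp and a range of 1000 to 5750 bp. Of the 291 neighbouring pairs, 56 touched with a gap of 0 bp and 51 were 250 bp apart, which is 1 step of the windows from which DMRs were built. At 1750 bp, the widest gap inside the rule, there were 27 pairs, and at 2000 bp, the first gap outside it, 23 pairs. Gaps of 0 to 1750 bp held 291 pairs, gaps of 2000 to 3750 bp 176 and gaps of 4000 to 5750 bp 180, whereas the median gap over all 8784 autosomal pairs was 100750 bp. The DMRs at a gap of 1750 bp had a median log2 ratio of adenoma over normal of -0.69 and those at 2000 bp one of -0.60, with median normal signals of 0.435 and 0.451 rpm. Clustered DMRs were 500 to 1500 bp long, and 63.9% were single 500 bp windows, against 74.6% of isolated DMRs.

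**Figure D1:**
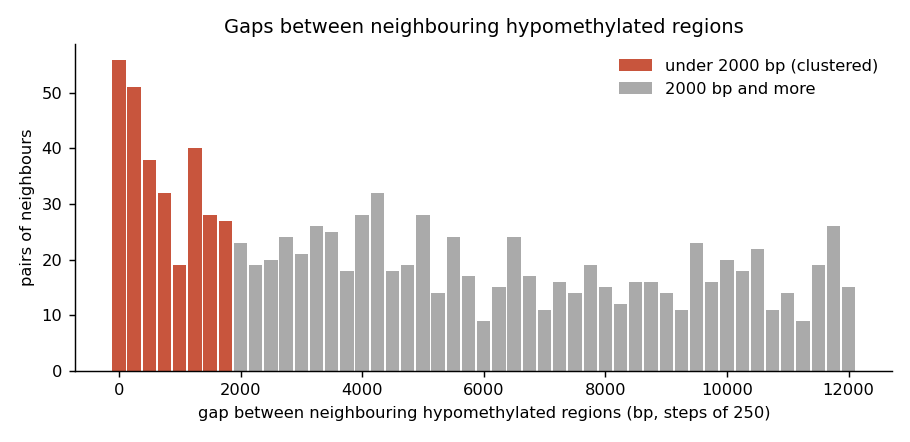
Number of neighbouring pairs of hypomethylated DMRs (vertical axis) by the gap between them in bp (horizontal axis, steps of 250 bp, shown up to 12000 bp), red for gaps inside the rule and grey for wider gaps. The count is highest at 0 bp (56 pairs) and 250 bp (51 pairs), and is 27 at 1750 bp and 23 at 2000 bp.

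Clusters were found on all 19 autosomes, with unequal shares. Chromosome 11 held 55 clustered DMRs, which were 9.72% of its 566 hypomethylated DMRs, and chromosome 16 held 33, or 9.73% of 339. Chromosome 12 held the fewest, 10 of 374 (2.67%). Per Mb the clustered DMRs ranged from 0.0825 on chromosome 12 to 0.451 on chromosome 11.

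Signal over the clustered DMRs was lower in every adenoma than in every normal sample. The mean over the 552 DMRs was 0.515 rpm in B1, 0.512 in B2 and 0.543 in B3, and 0.497 in N4, 0.499 in N5 and 0.514 in N6. In the adenomas it was 0.304 rpm in Ad4, 0.283 in Ad4-1, 0.289 in Ad5, 0.319 in Ad6 and 0.303 in Ad7. The group means were 0.524 ± 0.017 rpm (SD, n = 3) in B6 normal, 0.503 ± 0.0092 (SD, n = 3) in APCMin normal and 0.300 ± 0.014 (SD, n = 5) in adenoma. The adenomas thus lay in a narrow band well below both normal groups, a direction that the choice of the regions fixed. Isolated DMRs had means of 0.478 ± 0.014, 0.465 ± 0.0019 and 0.285 ± 0.012 rpm in the same groups.

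**Figure D2:**
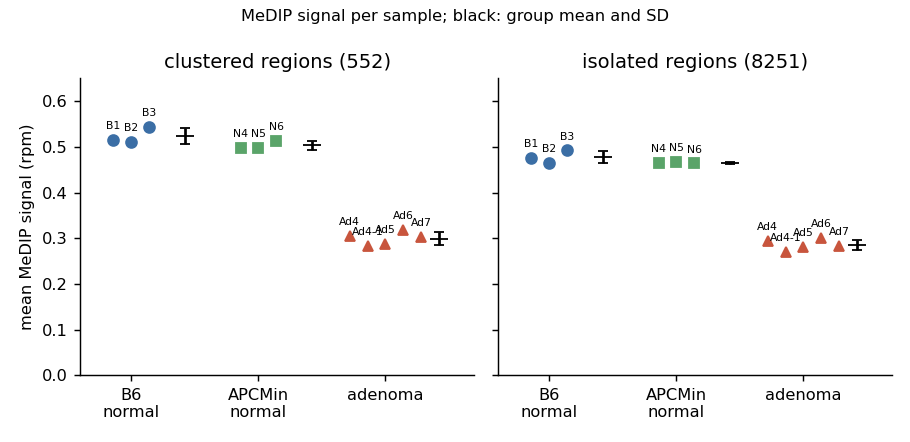
Mean MeDIP signal in rpm (vertical axis) of each sample over clustered (left) and isolated (right) hypomethylated DMRs, by group, with the group mean and SD in black. Over clustered DMRs the 5 adenomas span 0.283 to 0.319 rpm, under the 6 normal samples at 0.497 to 0.543 rpm.

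The median clustered DMR fell from 0.426 rpm in normal tissue to 0.241 rpm in adenoma. Its log2 ratio, taken on group means after adding 0.05 rpm, was -0.69 (quartiles -0.86 and -0.55), a 1.62-fold lower value, and the ratios of all clustered DMRs ran from -1.69 to -0.36. Isolated DMRs had a median of -0.63, a difference of -0.060 that became -0.035 with 0.5 rpm added in place of 0.05. On group means without the added 0.05 rpm, a fold above 2 was seen in 147 clustered DMRs (26.6%) and in 17.7% of isolated ones. All 5 adenomas lay below all 6 normal samples in 332 clustered DMRs (60.1%), beside 52.0% of all autosomal hypomethylated DMRs. Because this contrast selected both sets, these shares are descriptions. Within the clustered DMRs, the 72 in clusters of 3 had a median log2 ratio of -0.81 and 79.2% were separated in this way, while the 468 in pairs had -0.68 and 56.8%. Of the 12 in clusters of 4, 9 were separated, and their median was -0.74.

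How the single adenomas stood follows in part from the rank test that chose the regions, which leaves little room for a high adenoma. Each single adenoma lay below all 6 normal samples in 87.7% (Ad6) to 93.7% (Ad4-1) of the clustered DMRs. The same share of isolated DMRs is not given here. Against normal tissue of its own animal, Ad4 was lower in 543 of 552 clustered DMRs with a median log2 difference of -0.62, Ad4-1 in 543 with -0.69, Ad5 in 538 with -0.72 and Ad6 in 540 with -0.60. As shares of clustered DMRs these were 98.4%, 98.4%, 97.5% and 97.8%. Isolated DMRs had nearly the same shares, 97.8% in Ad4, 98.2% in Ad4-1, 98.4% in Ad5 and 96.6% in Ad6. Ad4-1 was the lowest adenoma in 152 clustered DMRs, and Ad6 in 70. The medians against the normal mean ran from -0.61 in Ad6 to -0.77 in Ad4-1, and Ad4 and Ad4-1, from 1 animal, stood at -0.68 and -0.77. With limma across all 13980 merged DMRs, 498 clustered DMRs were lower in the 4 adenomas of animals 4, 5 and 6 than in APCMin normal at an adjusted p under 0.05, beside 85.2% of all merged DMRs called in either direction and 54.9% called lower in adenoma. The base of both shares includes the hypermethylated DMRs. Of isolated DMRs alone, 86.6% were called, beside 90.2% of clustered DMRs. This contrast is part of the one that chose the regions, and nothing is read from these counts.

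Pmepa1 held more clustered DMRs than any other protein-coding gene. Of the 17 hypomethylated DMRs in its 52.1 kb (chr2:173049959-173102034, minus strand), 15 were clustered, in 6 clusters, and no hypermethylated DMR lay in the gene. The mean over its 15 clustered DMRs was 0.516 rpm in B1, 0.574 in B2, 0.615 in B3, 0.489 in N4, 0.489 in N5 and 0.539 in N6. The adenomas had 0.288 rpm in Ad4, 0.205 in Ad4-1, 0.290 in Ad5, 0.286 in Ad6 and 0.294 in Ad7. The highest adenoma was thus far below the lowest normal sample, Ad4-1 was the lowest of all, and the group means were 0.537 ± 0.050 rpm (SD, n = 6) in normal tissue and 0.273 ± 0.038 (SD, n = 5) in adenoma. The clustered DMRs held 229 CpG sites and stretched over 35.8 kb of the gene body. Of the 15, 14 lay in introns and 1 overlapped a coding exon, and none overlapped a promoter. Their log2 ratios ran from -1.36 to -0.51, and 10 of 15 were completely separated. The gene held 3.26 hypomethylated DMRs per 10 kb, against a median of 0.211 over the 3165 protein-coding genes with at least 1.

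Within the cluster of 4 in Pmepa1, every member was lower in every adenoma than in every normal sample. At chr2:173095251-173095750, 6533 bp downstream of the annotated gene start, the normal samples ran from 0.34 to 0.51 rpm and the adenomas from 0.11 to 0.33. At chr2:173096501-173097500 they ran from 0.58 to 0.97 and from 0.28 to 0.48 rpm. At chr2:173097501-173098750 the normal samples had 0.84 (B1), 0.86 (B2), 0.93 (B3), 0.70 (N4), 0.66 (N5) and 0.96 rpm (N6), and the adenomas 0.45 (Ad4), 0.19 (Ad4-1), 0.41 (Ad5), 0.38 (Ad6) and 0.45 rpm (Ad7). The 4 DMRs, in order along the chromosome, had log2 ratios of -0.69, -0.85, -1.04 and -0.78. A further Pmepa1 cluster of 3, at chr2:173075751-173080250, held the lowest ratio of the gene: at chr2:173079001-173080250 the normal samples ran from 0.42 to 0.82 rpm, Ad4 had 0.29 and each of the other 4 adenomas 0.18. Here the genotypes stood apart as well, with 0.73, 0.82 and 0.62 rpm in B1 to B3 and 0.42, 0.52 and 0.47 rpm in N4 to N6, a log2 difference of -0.57 ± 0.18 (SE) that did not pass the test (limma, adjusted p = 0.968). With 3 samples against 3, no overlap gives a two-sided p of 0.1 at best in an exact permutation test. The share of DMRs with such a gap between genotypes is not given here. Input signal differed between libraries at Pmepa1 as well. Over the 15 DMRs it was 0.334 rpm in B3, 0.155 in N4 and 0.107 in Ad7, an Ad7 over N4 ratio of 0.694 beside a MeDIP ratio of 0.602, from about 28.9 and 23.4 input fragments. Its part in the MeDIP difference was not tested.

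**Figure D3:**
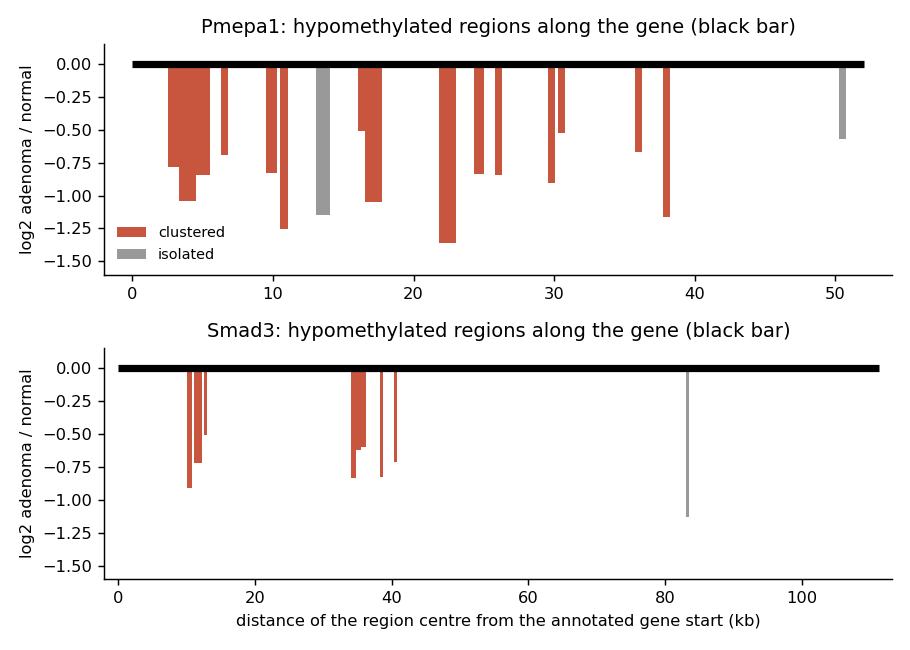
Log2 ratio of adenoma over normal (vertical axis) of each hypomethylated DMR along Pmepa1 (top) and Smad3 (bottom), by distance of its centre from the annotated gene start in kb (horizontal axis), with clustered DMRs in red, isolated ones in grey and the gene as a black bar. In Pmepa1 15 of 17 DMRs are clustered, and in Smad3 8 of 9.

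Smad3, which carries TGF-beta and activin signals to the nucleus, followed with 8 clustered DMRs among 9 hypomethylated ones (chr9:63494574-63605801, minus strand). The gene also held 1 hypermethylated DMR. All 8 lay in introns, in 3 clusters. Mean signal over them was 0.658 ± 0.078 rpm (SD, n = 6) in normal tissue, with a range of 0.574 to 0.783, and 0.380 ± 0.031 rpm (SD, n = 5) in adenoma, with a range of 0.343 to 0.411. The strongest signal was at chr9:63593501-63594750, where the normal samples had 1.32, 1.18 and 1.43 rpm (B1 to B3) and 1.21, 0.99 and 1.12 rpm (N4 to N6). There the adenomas had 0.69 (Ad4), 0.64 (Ad4-1), 0.59 (Ad5), 0.82 (Ad6) and 0.82 rpm (Ad7), all below the normal samples. One member, chr9:63565001-63565500, had no CpG site of its own, although fragments, extended to 300 bases, reach beyond it. Input over the 8 DMRs was 0.242 rpm in B3, 0.168 in N4 and 0.180 in Ad7, and its part was not tested.

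Other genes of the TGF-beta and BMP list held fewer. Of its 34 genes, 3 held clustered DMRs (8.82%, beside 0.714% of the 21418 autosomal protein-coding genes) and 11 held any hypomethylated DMR (32.4%, beside 14.8%). Apart from Smad3 these were Smad7, an inhibitor induced by the pathway, and Tgfb2, a ligand. At Smad7 the 2 clustered DMRs averaged 0.295 to 0.420 rpm in normal samples and 0.170 to 0.210 rpm in adenomas, with log2 ratios of -0.94 and -0.66. The latter overlapped the promoter of an annotated transcript, centred 7442 bp downstream of the annotated gene start. Input at these Smad7 DMRs was 0.310 rpm in N4 and 0.0900 in Ad7, from about 8.01 and 2.67 fragments, and its part was not tested. At Tgfb2 the 2 intronic DMRs averaged 0.545 to 0.640 rpm in normal samples and 0.385 to 0.465 in adenomas. This was a smaller but completely separated difference, with log2 ratios of -0.44 and -0.48. Input at Tgfb2 was 0.180 rpm in N4 and 0.130 in Ad7, from about 3.10 and 2.57 fragments. The Ad7 over N4 ratio was 0.722 in input and 0.782 in MeDIP, and the part of input was not tested. Pmepa1 was not on the list. The list counts are set beside those of all genes without a test, and gene length, which differs between lists, was not taken into account.

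Of 88 Wnt pathway genes found, 2 held clustered DMRs (2.27%), Vangl1 and Celsr1, which both act in planar cell polarity. At Celsr1 the normal samples averaged 0.810 to 1.12 rpm and the adenomas 0.385 to 0.690, and at Vangl1 0.280 to 0.450 and 0.125 to 0.245 rpm. Celsr1 also held 1 hypermethylated DMR. Kremen1, a Wnt inhibitor that was not on the list and was picked out after its values were seen, had an intronic DMR at chr11:5141751-5142500 with 1.36 to 1.65 rpm in normal samples and 0.74 to 1.21 in adenomas. Of 32 intestinal transcription factors, 1 did (3.13%): Nr1h4, which encodes the bile acid receptor FXR, with 0.365 to 0.550 rpm in normal samples and 0.260 to 0.350 in adenomas. None of the markers of intestinal stem cells (22 found), enterocytes (29), goblet cells (14), Paneth cells (11), enteroendocrine cells (20), tuft cells (12), smooth muscle and stroma (22) or immune cells (32) held a clustered DMR. The same was true of the lists for EGF receptor and MAPK signalling (41), Notch (28), Hippo (21) and DNA methylation with Polycomb (28). With 0.714% of all genes holding a clustered DMR, lists of this size are near the background at 0, and nothing is read from these counts. Any hypomethylated DMR was held by 0 of 11 Paneth cell, 1 of 20 enteroendocrine and 3 of 32 immune markers at the low end, and by 17 of 41 EGF receptor and MAPK genes and 10 of 22 stem cell markers at the high end, beside 14.8% of all genes.

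After Pmepa1 and Smad3 the genes with the most clustered DMRs held 4 to 7. Zfpm1, a cofactor of GATA factors, held 7 clustered DMRs among 11 hypomethylated ones, all in introns and all completely separated. Its mean was 0.483 ± 0.074 rpm (SD, n = 6) in normal samples and 0.284 ± 0.043 (SD, n = 5) in adenomas, and N6 was highest at 0.623 rpm. At chr8:124820251-124821000 N6 alone carried much of the normal signal, with 0.66 rpm against 0.21 to 0.31 rpm in the other normal samples, and the adenomas had 0.07 to 0.17 rpm. Gm20388, a 4435 kb gene model that runs across Zfpm1, holds the same 7 DMRs. Ets1, a transcription factor of the ETS family, held 4 in introns, with 0.384 ± 0.070 rpm (SD, n = 6) against 0.163 ± 0.040 (SD, n = 5), a 2.36-fold lower mean. At chr9:32518501-32519250 in Ets1 the B6 normal samples had 0.40, 0.79 and 0.52 rpm, the APCMin normal samples 0.31, 0.30 and 0.38 rpm and the adenomas 0.09 to 0.22 rpm. The 3 groups did not overlap there, but the genotype difference of -0.66 ± 0.21 (log2, SE) did not pass the test (limma, adjusted p = 0.968). As at Pmepa1, nothing is read from the lack of overlap between genotypes.

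Nfatc2, which encodes a calcium-regulated transcription factor, held 4 clustered DMRs in 2 clusters, and also 2 hypermethylated DMRs. Its member chr2:168343751-168344250 had one of the lowest ratios of all clustered DMRs, -1.58, at low signal: the normal samples had 0.33, 0.22, 0.30, 0.26, 0.38 and 0.19 rpm (B1 to B3, N4 to N6) and the adenomas 0.10, 0.02, 0.03, 0.08 and 0.07 rpm (Ad4, Ad4-1, Ad5, Ad6, Ad7). The groups did not overlap, and the ratio of the group means, without the added 0.05 rpm, was 4.67. Myo10, a motor protein of filopodia, held 4 in introns with a smaller difference, 0.855 ± 0.055 rpm (SD, n = 6) against 0.545 ± 0.044 (SD, n = 5). In all, 153 protein-coding genes held a clustered DMR, 19 held at least 3, and 8 held members of at least 2 clusters.

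Lpcat4, an acyltransferase of phospholipid remodelling, held a cluster of 4 in a gene of 7.64 kb. The cluster ran over chr2:112081251-112085000, and 3 of its DMRs overlapped a promoter, defined as 1000 bp upstream to 500 bp downstream of an annotated transcript start. These 3 were centred 1875, 3875 and 5000 bp downstream of the annotated gene start. The groups separated completely in the first and the last DMR of the cluster. At the last, chr2:112084251-112085000, the normal samples ran from 0.44 to 0.83 rpm and the adenomas from 0.31 to 0.37 rpm. In the middle pair the groups overlapped: at chr2:112082751-112083250 the lowest normal value, 0.60 in N5, was under the highest adenoma, 0.62 in Ad4. The third cluster of 4, at chr6:31059751-31064250, lay 51.3 kb from the nearest protein-coding gene, and its DMRs had log2 ratios of -0.82 to -0.67.

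The DMRs at the ends of the range were looked at after their values were seen. The highest normal signal of all clustered DMRs was in a coding exon of Kalrn, a guanine nucleotide exchange factor, at chr16:34031501-34032250. It ran from 1.79 to 2.25 rpm in normal samples and from 1.05 to 1.65 rpm in adenomas, a log2 ratio of -0.56. At Uck2, a uridine kinase, the 3 clustered DMRs each held AP-1 letters, described below, and the last of them, chr1:169164251-169165000, ran from 0.99 to 1.35 rpm and from 0.59 to 0.74 rpm. The ratio nearest to 0, -0.36, was at Plcb4, where the groups met at 0.26 rpm in B1, N4 and Ad4.

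**Figure D4:**
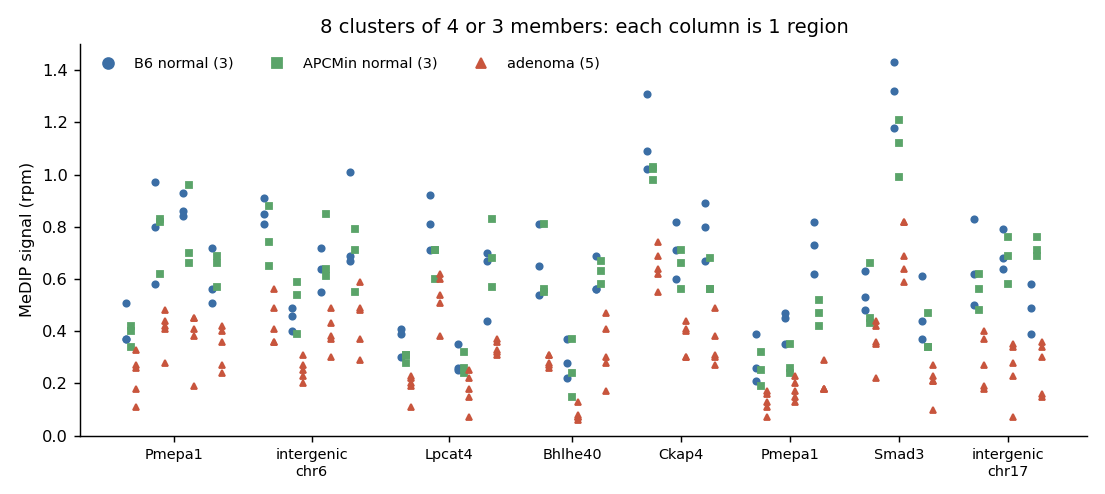
MeDIP signal in rpm (vertical axis) of each sample at each DMR of 8 clusters (the 3 of 4 members and the 5 of 3 members that cover the most bases), named by gene below, with blue circles for B6 normal, green squares for APCMin normal and red triangles for adenoma. In most columns the adenomas lie under both normal groups, and in the middle columns of Lpcat4, the first of Smad3 and the last of the chromosome 6 cluster they overlap.

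Among clusters of 3, Bhlhe40, the gene of a basic helix-loop-helix repressor, had a low mean ratio. Its cluster, chr6:108614251-108620000, began in the gene and ran past it, and its 3 DMRs had log2 ratios of -1.07, -1.29 and -0.82, each with complete separation. At chr6:108614251-108615750 the normal samples ran from 0.54 to 0.81 rpm and the adenomas from 0.26 to 0.31 rpm. Ckap4 carried 3 DMRs over chr10:83993001-83996500. At the promoter DMR, whose densest stretch was shown above, the normal samples had 0.67, 0.80, 0.89, 0.68, 0.56 and 0.56 rpm (B1 to B3, N4 to N6) and the adenomas 0.38, 0.30, 0.27, 0.31 and 0.49 rpm (Ad4, Ad4-1, Ad5, Ad6, Ad7). The groups came closest at Ad7 but did not overlap. The intergenic cluster chr17:84408251-84411250, 162 kb from Haao, had the lowest mean ratio of the 11 clusters in which every member was separated and at 0.5 rpm or more in normal tissue, -1.11. At its middle DMR the normal samples ran from 0.58 to 0.79 rpm and the adenomas from 0.07 (Ad4) to 0.35 (Ad4-1).

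Next in that order came Ubtf at -0.98, with chr11:102171501-102172500 falling from 0.69 to 1.32 rpm in normal samples to 0.34 to 0.49 rpm in adenomas. N6 had the highest value there. Elovl7, a fatty acid elongase, followed at -0.91, with 0.69 to 0.80 rpm in normal samples and 0.26 to 0.45 in adenomas at its first DMR, chr13:109005751-109007000. A cluster at chr11:94816001-94819250, 1.65 kb from the collagen gene Col1a1, had a mean of -0.90, and its second DMR ran from 0.81 to 1.05 rpm in normal samples and from 0.43 to 0.53 in adenomas. The other 4 named by this order were Ckap4 (-0.79), an intronic cluster of a non-coding gene near Slc39a11 on chromosome 11 (-0.69), Bcl6b (-0.63) and an intergenic cluster near Kpna4 on chromosome 3 (-0.63).

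A protein-coding promoter was overlapped by 40 of 552 clustered DMRs (7.25%), in 30 clusters, beside 4.53% of isolated DMRs and 3.18% of genome windows. Every annotated transcript start counted, also those inside a gene and away from its annotated start. This was so at Ubtf, a minus strand gene with its annotated start at chr11:102181056, and at Obfc1, Lpcat4, Smad7 and Synj2. Among those at 0.5 rpm or more in normal tissue, S100a16, a calcium-binding protein, had the lowest ratio, -1.10 at chr3:90342001-90343000, where the normal samples ran from 0.45 to 1.03 rpm and the adenomas from 0.30 to 0.37. Ubtf and Ckap4, described above, followed with Hoxa5, Obfc1 and Lpcat4. Hoxa5, a homeobox gene that the gene model of Hoxa3 overlaps, carried 2 touching DMRs at chr6:52153751-52154750 that lay wholly in a CpG island and held 59 and 37 CpG sites, the first of them the most of any clustered DMR. The first ran from 0.50 to 1.09 rpm in normal samples and from 0.36 to 0.49 in adenomas. In the second the groups overlapped, with 0.31 rpm in B3 and 0.52 in Ad6. At Obfc1, a telomere maintenance gene, the promoter DMR ran from 0.51 to 0.70 rpm and from 0.24 to 0.40 rpm. It lay at chr19:47583751-47585000, inside the gene, whose annotated start is chr19:47611528 on the minus strand.

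Over the whole set the clustered DMRs lay mainly in introns and between genes. Any overlap with an intron was seen in 60.5%, with intergenic sequence in 38.0%, with an exon in 17.4% and with a promoter of any gene in 9.78%. Isolated DMRs had 54.3%, 44.4%, 13.1% and 5.73%. CpG islands of at least 300 bp, 50% GC and a CpG count of 0.6 of that expected from base content were touched by 13.4% of clustered DMRs (95% exact interval 10.7 to 16.5%), 8.17% of isolated DMRs and 3.35% of all 500 bp windows of the genome. The 1000 bp on either side of an island were touched by 29.3% of clustered DMRs (25.6 to 33.3%), 16.3% of isolated DMRs and 8.09% of genome windows. Among single 500 bp windows, where length is equal, these shares were 12.7% and 6.69% for islands and 28.9% and 14.7% for their sides. The intervals treat DMRs as independent, which neighbours are not, and cover counting error only.

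Clustered DMRs were richer in CpG sites than the sequence between them. They held 9.56 CpG sites per 500 bp, the gaps inside clusters 6.95, the 2000 bp outside each cluster 7.33, isolated DMRs 8.14 and genome windows 4.25. In 171 of the 235 gaps above 0 bp (72.8%) the density was lower than in the neighbouring DMRs together. The signal of the gaps themselves was not analysed here. No hypermethylated DMR lay in any of the 235 gaps. Within 2000 bp of a clustered DMR a hypermethylated one was found in 4 of 552 (0.725%), and for isolated DMRs in 1.36%.

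Neighbours in a cluster shared the direction, which the rule fixed, and little of the variation among samples. After removing the mean of each group, Pearson's r between neighbouring DMRs over the 11 samples had a median of 0.085 in the 291 pairs. It was 0.26 in the 56 touching pairs, where extended fragments cover both DMRs, 0.060 at gaps of 250 to 750 bp and 0.068 at 1000 bp to the limit of the rule. At gaps of 2000 to under 5000 bp it was 0.043, and at 100000 bp and more 0.020. These weak values are a description of sparse counts. The difference in log2 ratio between neighbours had a median size of 0.18 in touching pairs and 0.25 at gaps of 1000 bp to the limit of the rule. Beside these, it was 0.19 at 2000 to under 5000 bp and 0.18 at 100000 bp and more.

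The letters TGACTCA, the site bound by AP-1 (the Fos and Jun family, which acts downstream of growth factor and stress signals), were searched on both strands, so that the complement TGAGTCA counts as well. At Smad3 they occurred in 4 of 8 clustered DMRs and at Ckap4 in 2 of 3, each match shown here in capitals with 20 bases on either side.
Smad3, chr9:63569695-63569741: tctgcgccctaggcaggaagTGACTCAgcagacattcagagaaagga
Smad3, chr9:63592833-63592879: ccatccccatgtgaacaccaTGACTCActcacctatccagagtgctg
Smad3, chr9:63593779-63593825: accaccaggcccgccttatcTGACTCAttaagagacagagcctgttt
Smad3, chr9:63594063-63594109: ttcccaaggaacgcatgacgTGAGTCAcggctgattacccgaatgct
Smad3, chr9:63595666-63595712: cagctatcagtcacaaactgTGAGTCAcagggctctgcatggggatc
Ckap4, chr10:83993299-83993345: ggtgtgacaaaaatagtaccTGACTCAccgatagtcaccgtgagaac
Ckap4, chr10:83993615-83993661: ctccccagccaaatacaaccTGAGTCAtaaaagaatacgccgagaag
Ckap4, chr10:83995073-83995119: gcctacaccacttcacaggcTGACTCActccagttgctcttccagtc
The Smad3 matches lie in introns, and those 4 DMRs had log2 ratios of -0.91 to -0.51. Pmepa1, with the most members, had the letters in 1 of 15.

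Across single-window DMRs the AP-1 letters were present in 18.4% of 353 clustered and 16.8% of 6158 isolated hypomethylated DMRs, in 6.37% of 4241 hypermethylated DMRs and in 7.76% of 9573891 genome windows. Over all windows, the measure used for the other letters below, the order of the first 2 sets was the reverse. There 18.6% of clustered and 19.9% of other hypomethylated windows held the AP-1 letters. Outside the clusters the share was 10.5% in the first 500 bp and 8.24 to 10.7% in the next 3 stretches of 500 bp, and inside the gaps 39 of 353 stretches held them. Among windows with 9 to 12 CpG sites it was 21.3% of clustered, 18.9% of isolated and 5.76% of hypermethylated DMRs and 8.38% of genome windows. With 5 to 8 CpG sites it was 18.2% of clustered and 17.0% of isolated DMRs. Clustered DMRs were below isolated ones with 0 to 4 CpG sites (2 of 24, or 8.33%, against 12.4%) and with 13 or more (16.9% against 17.4%). In single-window clustered DMRs 52.0% of 75 matches lay in the central 250 bp of 500, beside 54.96% of 1150 matches in isolated ones. At least 1 member held the letters in 110 of 261 clusters (42.1%), and at least 2 members in 9. With DMRs of every length, 21.9% of clustered and 21.1% of isolated DMRs held the letters. The cluster counts that such shares give by chance were not computed, so nothing is read from the 110 and the 9. Clustered DMRs with the letters had a median log2 ratio of -0.76 and those without -0.68, and isolated DMRs had -0.70 and -0.62.

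**Figure D5:**
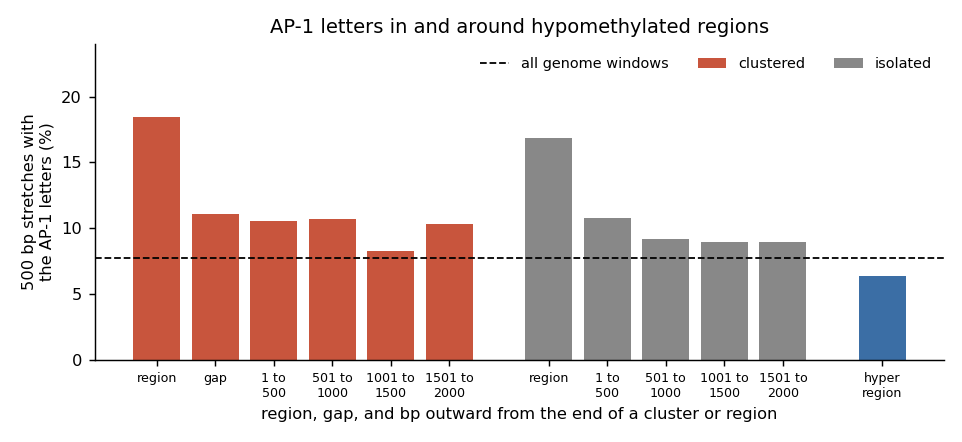
Share of 500 bp stretches that hold the AP-1 letters (vertical axis, percent) in single-window DMRs, in gaps and in stretches outward from the ends of clusters (red) or isolated DMRs (grey), and in hypermethylated DMRs (blue), with the share of all genome windows as a dashed line. Clustered (18.4%) and isolated (16.8%) DMRs stand above the stretches outside clusters (8.24 to 10.7%) and hypermethylated DMRs (6.37%) below the genome (7.76%).

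The other letters searched, on both strands, were no more frequent in clustered DMRs than in the genome. CTTTGAT, a core of TCF/LEF sites, which Wnt signalling uses, was in 9.29% of the windows of clustered DMRs, 10.0% of other hypomethylated windows and 9.99% of genome windows. In the same 3 sets, the site of GATA factors, AGATAA, was in 22.3%, 25.1% and 29.8%. That of CDX2, an intestinal homeobox factor, TTTATGG, was in 5.20%, 6.79% and 7.80%. The letters for HNF4, a nuclear receptor of enterocytes, CAAAGTCC, were in 1.73%, 2.28% and 1.93%. Unlike those of AP-1, these shares were not split by CpG sites, and base content, which differs between the sets and the letters, was not taken into account. Windows of 1 DMR overlap each other, letters are not bound sites, and their presence was not tested.

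Within normal tissue the clustered DMRs showed no called difference between genotypes. With limma on the 3 APCMin normal and 3 B6 normal samples across all 13980 merged DMRs, 0 clustered DMRs had an adjusted p under 0.05, beside 0% of all merged DMRs. At an unadjusted p under 0.05 there were 35 of 552 (6.34%), beside 647 of all 13980 (4.63%). The lowest adjusted p of limma among clustered DMRs was 0.682, and their median log2 difference, APCMin minus B6, was -0.041, with 319 of 552 below 0, while isolated DMRs had -0.023. The sample titles carry a number, which is 4 for B1, B2 and N4 and differs from 4 for B3, N5 and N6. It is called library series here, although the labels do not say what it stands for. Genotype is in part bound to it.

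The DMR with the largest genotype difference was also the one with the lowest adenoma ratio. It lay at chr17:5975251-5975750, in a promoter of Synj2, a phosphoinositide phosphatase of vesicle traffic, and was named after its values were seen. That promoter belongs to a transcript start inside the gene, whose annotated start is chr17:5941280 on the plus strand. The B6 normal samples had 0.29 (B1), 0.65 (B2) and 0.82 rpm (B3), APCMin normal had 0.14 (N4), 0.24 (N5) and 0.31 rpm (N6), and the adenomas had 0.13 (Ad4), 0.13 (Ad4-1), 0.06 (Ad5), 0.11 (Ad6) and 0.03 rpm (Ad7). The genotypes overlapped only through B1 and N6, and the log2 difference was -1.13 ± 0.27 (SE, limma, adjusted p = 0.682). Without B1 it was the single DMR called by limma among all 13980 merged DMRs, with a log2 difference of -1.53 ± 0.24 (SE) and an adjusted p of 0.0085. B1 is the B6 sample that overlapped APCMin normal here, so nothing is read from this call. The list also set its limit on signal over both normal groups together, and the B6 samples gave most of that signal here. Its log2 ratio of adenoma over normal was -1.69.

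Input DNA, which the rule did not use, differed between its libraries too. Over the clustered DMRs it averaged 0.203 rpm in B3, 0.156 in N4 and 0.148 in Ad7. Ad7 over N4 was thus 0.951, beside 0.609 for MeDIP of the same samples, and Ad7 over B3 was 0.731, beside 0.557 for MeDIP. Input of N4 over B3, both normal, was 0.769, a wider gap than in MeDIP, where N4 had 0.497 and B3 0.543 rpm. At the named genes, input of Ad7 over N4 was below 1 at Pmepa1, Zfpm1, Ets1, Tgfb2, Nr1h4 and Smad7. It was above 1 at Smad3, Lpcat4, Nfatc2, Myo10, Vangl1 and Celsr1. At Smad7, Tgfb2 and Nr1h4 (0.727 beside 0.821) it lay below the MeDIP ratio, on few fragments, and its part was not tested. With 1 library for each sample there is no replicate check, the other 4 adenomas had no input, and 107 clustered DMRs were at 0 in the input of B3, 70 in N4 and 49 in Ad7.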

How the data were processed

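MeDIP-seq of 11 samples and input DNA of 3 were used. Per the labels and methods, the authors aligned reads to mm9 with Bowtie 0.12.5, kept unique reads without duplicates, extended them to 300 bases and deposited the mean signal of each region in rpm (read counts scaled to the size of the library), rounded to 2 decimals. The authors listed 500 bp windows, moved in steps of 250 bp, by a rank test of 5 adenomas against 6 normal samples with limits on ratio and signal, and merged overlapping windows into DMRs. MeDIP libraries held 13878615 to 26297510 uniquely aligned reads. A median clustered DMR then rests on about 5.55 fragments over 500 bp in Ad7 to 18.8 in N5, a counting error of 42.4% to 23.0%.

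Here, gaps were measured between autosomal hypomethylated DMRs, and log2 ratios were taken on group means plus 0.05 rpm. Counts of DMRs with a fold or ratio above 2 used group means without this addition. limma 3.58.1 (R 4.3.3) was fitted with a variance trend to log2(rpm + 0.05) of all 13980 merged DMRs, with Benjamini-Hochberg adjustment and a threshold of 0.05, after being tested on simulated data. CpG sites, islands and letters came from the NCBIM37 (mm9) genome and genes from GENCODE M1, and every autosomal DMR ended within its chromosome. The genome was not masked for repeats, which were not annotated. Pearson's r of deviations from the group mean was -0.054 to 0.032 for the 4 adenoma and normal pairs of 1 animal, and -0.032 to 0.067 for the 11 other pairs. Pairing comes from the animal numbers of the labels. The animal numbers tie samples of 1 donor, so the fit with the animal as a replicate block was run too. Samples are separate animals except those named, and p-values measure the spread between them.

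The columns of the authors' own comparison (group means, variances, ratios and rank test p-values) were not used. The planned test of gene expression was not run, because the gene table used here holds descriptions of columns and no values, so no marker gene was measured to check the tissue labels. Named clusters were the 8 first by number of members, with ties broken by bases covered, the 8 with the lowest mean ratio among those fully separated at 0.5 rpm or more, and the 6 with the lowest ratio at a protein-coding promoter. Named genes were the 8 first by number of members, with ties broken by members per gene length (Kalrn, with 4, fell out by this), and the list genes with at least 2. Regions, gene lists, letters and tests were chosen with earlier results of these data known.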

Additional observations from a re-analysis of the deposited data

Results flagged for a closer look

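The 5 adenomas were checked for a value far from the others at the mean over all clustered DMRs and at each of the 45 DMRs of the named clusters, 46 groups in all, and 3 stood out. Chance flags about 1 in 20 such groups. At chr2:173079001-173080250 in Pmepa1, Ad4 had 0.29 rpm while the other 4 adenomas had 0.18 each. At chr2:173097501-173098750 in Pmepa1, Ad4-1 had 0.19 rpm and the others 0.38 to 0.45. At chr6:108617001-108617750 near Bhlhe40, Ad6 had 0.13 rpm and the others 0.06 to 0.08. In each of the 3 DMRs all adenomas remained below all normal samples.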

How the results depend on the processing

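Which regions count as clustered depends on the rule: the count of 552 became 340 with gaps under 1000 bp, 1041 with gaps under 5000 bp, 46 among DMRs with a ratio above 2 and 204 among those with all adenomas below all normal samples, because fewer or more DMRs enter, and 453 with touching DMRs joined. The median log2 ratio of -0.69 became -0.32 with 0.5 rpm and -0.78 with 0.01 rpm added, since the added value scales small ratios, and lay between -0.72 and -0.68 when any 1 sample was left out. Its difference to isolated DMRs was -0.035 with 0.5 rpm added and lay between -0.074 and -0.050 when any 1 sample was left out. Separated DMRs numbered 351 to 389 on leaving out a sample. Against APCMin normal, the count of 498 was 468 with the animal as a replicate block, and 372 to 462 without 1 sample. The genotype count was 0 to 1 without 1 sample, with 1 reached without B1, and 0 under the other settings, including library series as a term of the fit. Counting only DMRs at least 50% inside a feature gave 7.07% for promoters, 5.07% for exons and 5.80% for islands. Stricter islands (500 bp, 55% GC, 0.65) were touched by 2.36% of clustered DMRs, 0.873% of isolated DMRs and 1.28% of genome windows. Isolated DMRs, above the genome windows with the main island limits, were thus below them with the stricter ones. The median r of neighbours, 0.085, lay between 0.032 and 0.12 without 1 sample. The input ratio of 0.951 became 0.731 with B3 in place of N4. The other settings listed for these results left them within the spread between samples, or within 1.5 times for counts. None of these results for the clustered DMRs changed direction.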
